A study of Rattus norvegicus with 8 samples.

Results

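The genes described here are Hif1a (ENSRNOG00000008292) and Epas1 (ENSRNOG00000021318), which encode the oxygen-regulated subunits HIF-1 alpha and HIF-2 alpha of the hypoxia-inducible factors. They were chosen by their Ensembl gene IDs, 2 of the 21549 IDs in the tables, by a rule that uses no measured value but was written with earlier results of these data known. The symbols are those the rule gives, as no file used here pairs the IDs with names. RNA was sequenced from heart tissue of Sprague Dawley rats, an outbred laboratory strain, aged 3 months. The groups were 4 rats kept in normoxia, which served as controls, and 4 rats exposed to chronic hypoxia. Each library was taken as 1 rat. The labels list no genotype or drug treatment for either group. The sources used here do not state how low the oxygen was, how long the exposure lasted, which sex the rats were or which chamber was taken.

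A hypoxia-inducible factor is a dimer of an alpha subunit and the constitutive partner ARNT, and it binds the core letters ACGTG or GCGTG in the DNA of its target genes. In oxygenated cells prolyl hydroxylases mark the alpha subunits, the von Hippel-Lindau protein recognises the mark, and the proteasome destroys them. When oxygen falls the hydroxylation slows and the proteins accumulate, so both factors are controlled mainly at the level of protein and an mRNA value does not report their activity. HIF-1 alpha is best known as an inducer of glycolytic enzymes in many cell types. HIF-2 alpha was first described in endothelium and is known for its control of erythropoietin and of vascular genes.

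Both genes lie on rat chromosome 6 in the RefSeq annotation of build GRCr8. The bases just upstream of each start site are shown because they are a stretch in which a hypoxia-inducible factor could meet its own gene. They differ in the core letters they hold, and sequence outside them was not searched. Each window runs 250 bases up to the annotated start, 5′ to 3′ on the strand of the gene, and capitals mark the letters ACGTG read on either strand.

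Hif1a (GRCr8 chr6:98359648-98359897, plus strand): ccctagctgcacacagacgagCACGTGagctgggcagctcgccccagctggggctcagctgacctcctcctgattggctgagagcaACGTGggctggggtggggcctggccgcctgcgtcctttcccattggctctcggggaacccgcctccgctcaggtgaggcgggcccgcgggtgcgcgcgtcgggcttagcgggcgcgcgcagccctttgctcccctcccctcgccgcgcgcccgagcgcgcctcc
Epas1 (GRCr8 chr6:13624730-13624979, minus strand): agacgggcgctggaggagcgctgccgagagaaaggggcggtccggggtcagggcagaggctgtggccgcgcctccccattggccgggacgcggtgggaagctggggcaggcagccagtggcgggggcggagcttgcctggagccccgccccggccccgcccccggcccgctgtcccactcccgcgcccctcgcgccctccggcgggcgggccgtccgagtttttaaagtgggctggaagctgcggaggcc

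The Hif1a window held 3 matches to ACGTG, 2 of which overlap on opposite strands in the palindrome CACGTG, and 0 matches to GCGTG. The Epas1 window held 0 matches to either. Of 33469 windows of the same length in the RefSeq table, 16.6% held at least 1 ACGTG and 25.9% at least 1 GCGTG. At least 2 matches to ACGTG, counted over both strands, were held by 6.53%. A single CACGTG gives 2 matches in this count, so the share is not that of windows with 2 separate sites. Both windows were rich in G and C, at 73.6% for Hif1a and 76.8% for Epas1 against a median of 51.2% over all windows. The background shares were not matched for this. These matches describe the letters only, and binding was not measured.

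Epas1 was the more abundant of the pair in all 8 hearts. FPKM, the count divided by the length of the gene model and by the library total, allows the comparison between genes of different length. The gene models behind the deposited values were 3985 bp long for Hif1a and 4898 bp for Epas1. Epas1 had 53.8 to 118 FPKM and ranked between 429 and 886 from the top of all genes in a library. Hif1a had 8.43 to 14.5 FPKM and ranked between 3662 and 4941. Of the 17480 to 18125 genes with at least 1 count in a library, 71.7% to 79.7% lay below Hif1a and 95.1% to 97.6% lay below Epas1.

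The counts were deep enough that sampling of reads contributed little to the differences between animals. Library totals ran from 26229304 to 32160710 counts. Hif1a received 1080 to 1626 counts per library, a counting error of 2.48% to 3.04%. Epas1 received 8029 to 18272 counts, a counting error of 0.740% to 1.12%. These errors do not cover losses and amplification during library preparation.

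Hif1a mRNA was slightly lower on average in the hypoxic hearts, by an amount that did not pass the test. CPM here means counts relative to the library size after TMM scaling (trimmed mean of M values), which corrects library totals for a few very abundant genes. Hif1a stood at 45.3, 53.3, 52.6 and 43.8 CPM in normoxia libraries 1 to 4. In hypoxia libraries 1 to 4 it stood at 39.9, 37.4, 51.6 and 42.0 CPM. Hypoxia libraries 1, 2 and 4 lay below the lowest normoxia library and hypoxia library 3 lay among the normoxia values, so the groups overlapped.

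Mean Hif1a was 48.7 ± 4.90 CPM in the normoxic hearts and 42.7 ± 6.22 CPM in the hypoxic ones (SD, n = 4 each). The log2 fold change was −0.19 (SE 0.11, 95% interval −0.45 to 0.07, edgeR adjusted p = 0.228 by the Benjamini-Hochberg method over 14214 tested genes). On the linear scale the interval runs from 0.734 to 1.05 times the normoxia level, so it includes no change and extends no further than a rise of 4.62%. Without hypoxia library 3 the log2 fold change was −0.29 and passed the test (edgeR adjusted p = 0.0457). The 7 other ways of leaving out 1 library gave −0.24 to −0.14, and none of those passed.

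**Figure D1:**
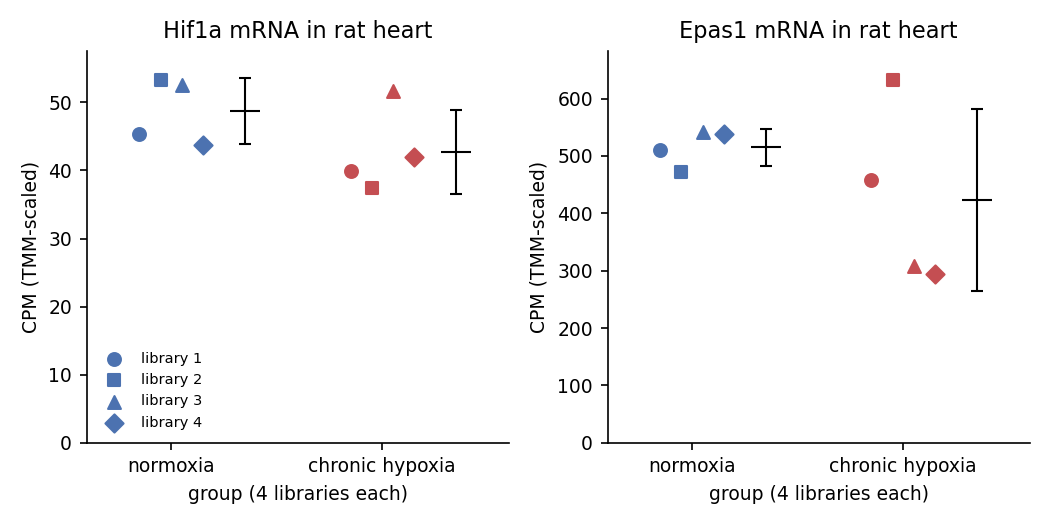
TMM-scaled CPM of Hif1a (left) and Epas1 (right) on axes from 0, with 1 point per library, its marker showing the library number within its group, and the mean ± SD beside each group. The Hif1a groups overlap, with hypoxia library 3 at 51.6 CPM among the normoxia values, and the Epas1 hypoxia libraries spread from 294 to 633 CPM on both sides of the normoxia libraries at 472 to 541 CPM.

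Under TMM scaling, Epas1 mRNA did not move in a single direction in the hypoxic hearts. It stood at 510.3, 472, 541 and 538 CPM in normoxia libraries 1 to 4. In hypoxia libraries 1 to 4 it stood at 459, 633, 308 and 294 CPM. Hypoxia library 2 was the highest of all 8, hypoxia library 1 was just under the lowest normoxia library, and hypoxia libraries 3 and 4 were far below it, at 0.598 and 0.572 times the normoxia mean (geometric mean). The place of hypoxia library 2 depended on the scaling. By library totals alone it stood at 568 CPM, inside the normoxia range of 510 to 578 CPM, and the other hypoxia libraries were still below that range.

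Mean Epas1 was 515 ± 32.2 CPM in the normoxic hearts and 423 ± 158 CPM in the hypoxic ones (SD, n = 4 each). The log2 fold change was −0.28 (SE 0.22, 95% interval −0.77 to 0.20, edgeR adjusted p = 0.346). The interval runs from 0.586 to 1.15 times the normoxia level, so neither a sizeable fall nor a small rise of the mean is outside it. The call turned on 1 animal: without hypoxia library 2 the log2 fold change was −0.55 and passed (edgeR adjusted p = 0.0246). Without hypoxia library 3 it was −0.16 and without hypoxia library 4 it was −0.15, and neither passed (edgeR adjusted p = 0.602 and 0.614). In heart tissue, fewer cells that express a gene and less of its mRNA per cell cannot be told apart.

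Neither gene was called, against a background of 33.0% of the 14214 tested genes called at an adjusted p under 0.05, with 17.7% higher and 15.3% lower in hypoxia. Neither had groups that did not overlap, which held for 34.3% of tested genes. The Hif1a fold change was smaller in size than that of most tested genes, with 34.8% closer to 0. The size of the Epas1 change was near the middle, with 48.3% of genes closer to 0 and a median absolute log2 fold change of 0.30 over all genes.

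How the libraries were scaled altered the size of both changes but not their side of the threshold. With library totals alone, in place of TMM, the log2 fold changes were −0.36 for Hif1a (edgeR adjusted p = 0.0616) and −0.46 for Epas1 (edgeR adjusted p = 0.105). That scaling placed the median of all tested genes at −0.17, against 0.01 under TMM, so both values lay about as far below the median gene as under TMM. The deposited FPKM values also rest on library totals. On that scale Hif1a went from 13.0 ± 1.52 to 10.1 ± 1.92 FPKM and Epas1 from 112 ± 5.75 to 81.0 ± 28.4 FPKM (SD, n = 4 each).

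Gene-model length moved with the exposure in these libraries, and both members have long models. The mean model length per count was 2596 to 2628 bp in normoxia and 2220 to 2375 bp in hypoxia. Among the 1421 tested genes of 3288 to 4019 bp, the tenth of lengths that holds Hif1a, the median log2 fold change was −0.11. Among the 1421 genes of 4020 to 5213 bp, which hold Epas1, it was −0.14. Once each library's trend with length was subtracted, the log2 fold changes were −0.07 for Hif1a (edgeR adjusted p = 0.651) and −0.11 for Epas1 (edgeR adjusted p = 0.744). Whether RNA quality differed between the groups was not tested.

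**Figure D2:**
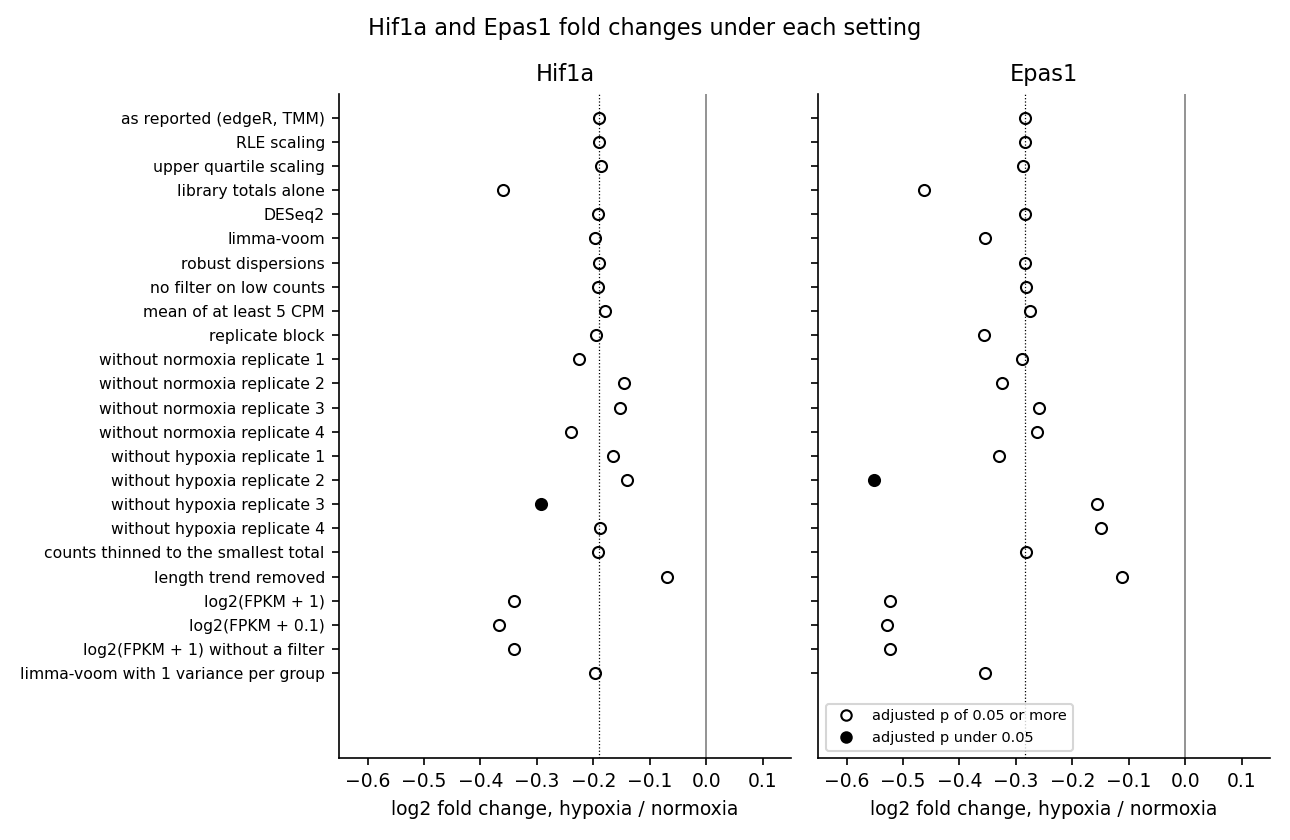
Log2 fold change of Hif1a (left) and Epas1 (right), hypoxia over normoxia, under each scaling, tool, filter and left-out library, with the dotted line at the value reported and filled points where the adjusted p was under 0.05. All points lie below 0, from −0.37 to −0.07 for Hif1a and from −0.55 to −0.11 for Epas1, and 1 point in each panel is filled.

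The removal of the length trend left the spread between the hypoxic hearts in place. Epas1 then stood at 506, 667, 309.7 and 314 CPM in hypoxia libraries 1 to 4, and at 439 to 510.3 CPM in normoxia. Hif1a stood at 38.9 to 52.1 CPM in hypoxia and at 42.1 to 50.6 CPM in normoxia. Only hypoxia library 2 then lay below the normoxia range for Hif1a, and only hypoxia libraries 3 and 4 for Epas1.

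The groups differed more visibly in the spread of Epas1 than in its mean. Its highest library exceeded its lowest 1.15-fold in normoxia and 2.15-fold in hypoxia. On the log2 CPM scale its SD was 0.09 among normoxic hearts and 0.52 among hypoxic ones (n = 4 each). In normoxia 32.7% of tested genes had a smaller SD than Epas1, and in hypoxia 85.9% did. Most genes were also more variable in hypoxia, with a larger SD there for 78.7% of them and a median SD of 0.23 against 0.13. Whether the spread of Epas1 differed between the groups was not tested.

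Hif1a varied less between the hypoxic hearts than Epas1 did, and its spread was near that of the median gene. On the log2 CPM scale its SD was 0.15 among normoxic hearts and 0.20 among hypoxic ones (n = 4 each). In normoxia 57.4% of tested genes had a smaller SD, and in hypoxia 42.3% did. Its highest library exceeded its lowest 1.22-fold in normoxia and 1.38-fold in hypoxia.

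**Figure D3:**
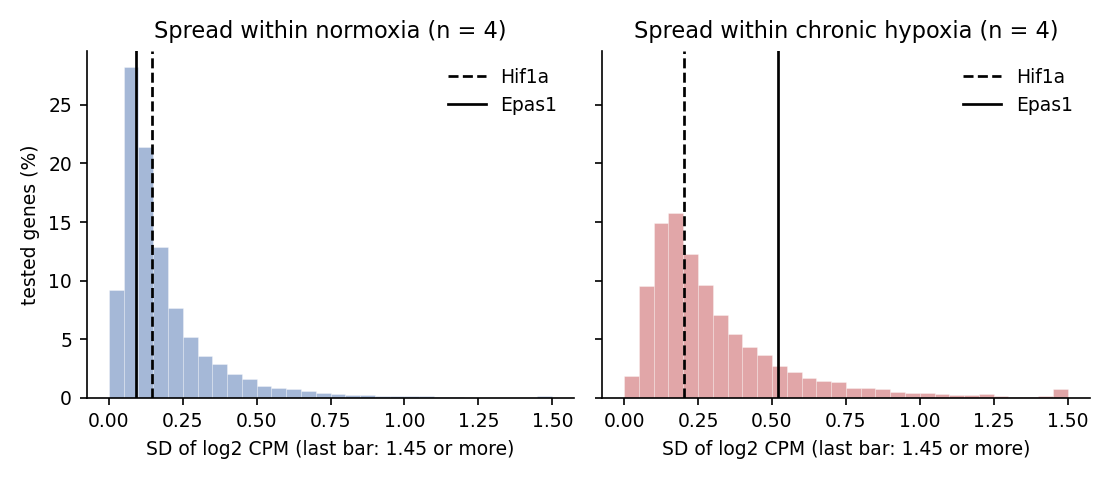
Share of the 14214 tested genes (%) by the SD of log2 CPM over the 4 libraries of normoxia (left) and chronic hypoxia (right), with lines at Hif1a (dashed) and Epas1 (solid). Epas1 lies at 0.09 in normoxia and at 0.52 in hypoxia, where 85.9% of genes have a smaller SD, while Hif1a lies at 0.15 and 0.20.

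The balance between the alpha subunits is free of library scaling, because both counts come from the same library. Epas1 FPKM was 9.17, 7.20, 8.38 and 9.99 times Hif1a FPKM in normoxia libraries 1 to 4. It was 9.36, 13.8, 4.85 and 5.70 times as high in hypoxia libraries 1 to 4. The hypoxic hearts thus held the highest ratio and the 2 lowest of all 8, with hypoxia library 1 inside the normoxia range. Within the hypoxia group, library 2 combined the highest Epas1 with the lowest Hif1a, and library 3 had low Epas1 with the highest Hif1a.

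The mean ratio was 8.68 ± 1.19 for normoxic and 8.42 ± 4.07 for hypoxic hearts (SD, n = 4 each), with the wider spread in hypoxia. The log2 ratio of Hif1a to Epas1 counts was −3.41 ± 0.20 for normoxic and −3.25 ± 0.69 for hypoxic hearts (SD, n = 4 each). The difference of 0.16 was smaller than the SD of either group. It did not pass the test (n = 4 each, two-sided exact permutation p = 0.714 over 70 assignments). The smallest possible p over these assignments is 0.0286. A change of Hif1a different from that of Epas1 was therefore not detected with 4 animals per group. The difference was 0.44 without hypoxia library 2, −0.07 without hypoxia library 3 and 0.01 without hypoxia library 4, so its sign and size rested on single animals. Expressed as a share of the summed FPKM of both genes, Epas1 made up 87.8% to 90.9% in normoxia and 82.9% to 93.2% in hypoxia.

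**Figure D4:**
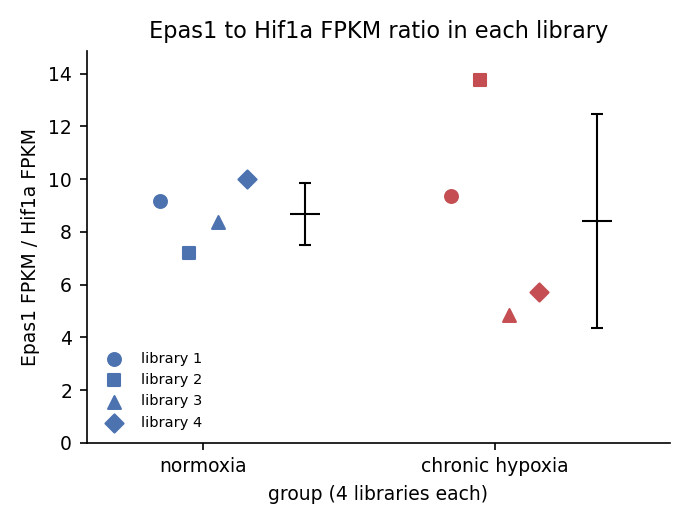
Epas1 FPKM divided by Hif1a FPKM in each library, on an axis from 0, with the mean ± SD beside each group and markers by library number. Normoxia libraries lie between 7.20 and 9.99, and hypoxia libraries lie at 9.36, 13.8, 4.85 and 5.70.

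The summed FPKM of both subunits, which is mostly Epas1, was 119 to 132 in normoxia. In hypoxia libraries 1 to 4 it was 102, 124, 75.4 and 63.2. Hypoxia library 2 was within the normoxia range and the other hypoxia libraries were below it. FPKM rests on library totals, and the place of hypoxia library 2 differs under TMM scaling. There its Epas1 value of 633 CPM was above the normoxia range of 472 to 541 CPM.

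Likeness of pattern across the 8 hearts was measured as the root mean square difference of log2 CPM, each gene centred on its own mean over the 8 libraries. Between Hif1a and Epas1 it was 0.45, so that 73.0% of tested genes were nearer to Hif1a than Epas1 was, and 48.9% were nearer to Epas1 than Hif1a was. The measure is not scaled to a gene's own spread, so it grows with the wide spread of Epas1 in hypoxia. The median difference over tested genes was 0.31 from Hif1a and 0.45 from Epas1. As the nearest genes were chosen on these values, their likeness is a description. The gene nearest to Hif1a was ENSRNOG00000005958, with a gene model of 4668 bp, at a difference of 0.06. It stood at 65.9 to 76.9 CPM in normoxia and at 65.2, 57.7, 77.2 and 67.1 CPM in hypoxia libraries 1 to 4, and its log2 fold change of −0.11 did not pass (edgeR adjusted p = 0.434).

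The gene nearest to Epas1 was ENSRNOG00000013867, of 4493 bp, at a difference of 0.09. It stood at 235 to 277 CPM in normoxia and at 246, 363, 179.9 and 177 CPM in hypoxia libraries 1 to 4. Its log2 fold change of −0.13 did not pass (edgeR adjusted p = 0.656).

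The table of gene names used here matched 0 of the 21549 IDs in the files. The partner ARNT, the prolyl hydroxylases, the von Hippel-Lindau protein and the known targets of the factors were therefore not analysed here, nor were markers of cardiomyocytes, endothelium or blood. The part that cell makeup had in the Epas1 values was not tested.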

How the data were processed

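RNA-seq was made from 8 rat hearts. Trizol was used for RNA extraction and the NEBNext Ultra kit for library preparation, per the labels' protocols. The authors deposited raw read counts per gene and FPKM values, 1 table of each per library. The submitters' processing notes name Bowtie2 2.2.3, HISAT2 2.1.0, HTSeq 0.6.0 and the build rn6. The sources used here do not state the role of each tool, the annotation or the strand setting, so reads of an overlapping or antisense transcript cannot be told apart from those of Hif1a or Epas1. Count, FPKM and library total returned a whole gene-model length, within 0.01 bp, in 100% of 143186 values above 0.

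Counts were tested with edgeR 4.0.16 in R 4.3.3 (filterByExpr with a minimum count of 10, TMM, quasi-likelihood test, group as the only term), with Benjamini-Hochberg adjustment over 14214 genes. The SE came from the test statistic and log2 CPM used a prior count of 2. A length trend was removed with a lowess curve (span 0.3) of each library's log2 deviation on log2 length, through offsets. The ratio was tested by exact permutation. Alternatives were other scalings, DESeq2 1.42.0, limma 3.58.1 on counts and on log2(FPKM + 1) or log2(FPKM + 0.1), other filters, thinned counts, left-out libraries and the replicate block. The edgeR step was tested on simulated counts that had the same dispersion for every gene and for both groups. A spread that differs between the groups was not simulated.

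The named genes were Hif1a, Epas1 and the gene of most like pattern for each. The HIF pathway and cell marker lists named no gene for want of symbols. The members and lists were chosen with earlier results of these data known. Each library was treated as 1 animal, because the labels speak of 4 rats per condition. Upstream sequences came from RefSeq (GRCr8), matched by symbol for both genes, so they rest on the symbols given in the rule. Their coordinates are not those of rn6.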

Additional observations from a re-analysis of the deposited data

How the results depend on the processing

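Both fold changes stayed negative in all 23 alternatives, from −0.37 to −0.07 for Hif1a and from −0.55 to −0.11 for Epas1. Leaving out 1 library gave −0.29 to −0.14 for Hif1a and −0.55 to −0.15 for Epas1, and the test was passed in 1 case each, Hif1a without hypoxia library 3 and Epas1 without hypoxia library 2. The other 15 alternatives made no call, with adjusted p from 0.0590 to 0.651 for Hif1a and from 0.0762 to 0.744 for Epas1. Limma-voom with 1 variance per group, added after the data were seen, gave −0.20 (adjusted p = 0.234) and −0.36 (adjusted p = 0.162). The difference in log2 ratio of Hif1a to Epas1 counts ranged from −0.07 to 0.44 with 1 library left out, with exact permutation p from 0.2 to 1.0, and reversed to −0.0662 without hypoxia library 3. Calls over all genes numbered 4693 and ranged from 3315 to 5298 in the alternatives. Library totals alone turned 2516 higher and 2177 lower genes into 1426 and 3872. Replicate numbers are not stated to pair the rats. Deviations of log2 CPM from the group means correlated at −0.0847 to 0.0187 between same-number libraries. With the replicate block, 3841 genes were called, the log2 fold changes were −0.20 for Hif1a and −0.36 for Epas1, and neither passed (adjusted p = 0.206 and 0.268). The block left the ratio difference at 0.16 (exact permutation p = 1.0 over 16 sign assignments). So few assignments cannot give a p under 0.05 for any difference, so this test could not have passed. The alternatives for the HIF pathway list were not run, as no symbols matched. Thinning all libraries to the smallest total, which evens out depth but lowers it little, gave −0.19 for Hif1a and −0.28 for Epas1.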
